A study of Mus musculus with 28 samples.

Results

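Promoters and gene bodies of 9 genes of dopamine-regulated cAMP and G protein signalling were read in H3K4me3 and H3K27me3 profiles of mouse striatal projection neurons. The genes are *Ppp1r1b*, *Arpp21*, *Gnal*, *Gng7*, *Rgs9*, *Rasd2*, *Adcy5*, *Pde10a* and *Pde1b*. They were chosen for their known roles in this pathway and their high expression in striatal projection neurons. The rule that chose them uses no value of the profiles, but it was set with earlier results of these data known. They are 9 of 21938 annotated protein-coding genes.

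Striatal medium spiny neurons (MSNs) fall into a D1 type, which carries the dopamine receptor D1, and an A2a type, which carries the adenosine receptor A2a and the dopamine receptor D2. In D1 MSNs dopamine raises cAMP through the G protein alpha subunit Gαolf and adenylyl cyclase 5, and in A2a MSNs adenosine raises it through the same proteins while dopamine lowers it. Cyclic AMP activates protein kinase A, which phosphorylates DARPP-32 and turns it into an inhibitor of protein phosphatase 1, and phosphodiesterases end the signal. H3K4me3 is a histone mark found at active promoters, and H3K27me3 is the mark laid down by Polycomb complexes at silenced genes.

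The nuclei came from the striatum of adult mice of about 8 weeks, male and female, on a C57BL/6J background, of the lines Sun1-sfGFP;A2a-cre (A2a) or Sun1-sfGFP;Drd1-cre (D1). That age is from the paper's methods, and its results name a wider range of ages. Ages were not compared between the groups here. In both lines a Cre-dependent nuclear envelope protein tagged with GFP (R26-CAG-LSL-Sun1-sfGFP) marks the cells in which the A2a or Drd1 promoter has driven Cre, so a group holds every striatal cell with Cre and not MSNs by another criterion. Nuclei were taken by INTACT, a pull-down of tagged nuclei, from single mice and profiled by CnR (cleavage under targets and release using nuclease). Of 28 samples, 8 stand behind the 4 deposited lists used here, 2 replicates for each cell type and mark, with the Abcam antibody for H3K4me3 and the Active Motif antibody for H3K27me3. Each list pools its 2 replicates, so there is no spread between mice, no test was made, and a difference between A2a and D1 is a difference between 2 pooled lists. More nuclei with a mark and more of the mark per nucleus cannot be told apart.

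The source name of the D1 H3K27me3 samples reads A2a, whereas their title and cell type read D1, and they were taken as D1. As a check, markers of the labelled cells were read. The H3K27me3 island over the *Drd1* promoter held 1958 reads in A2a and 86 in D1, and *Adora2a*, which encodes the A2a receptor, had no promoter island in A2a and one of 4153 reads in D1. Markers were not free of islands in their own cell type. Promoter islands lay at 3 of 5 A2a markers in A2a and 5 in D1, and at all 4 D1 markers in both lists. All of these markers had an H3K4me3 promoter peak in both lists. Markers of other cells also had H3K4me3 promoter peaks: 4 of 6 oligodendrocyte genes in A2a and 3 in D1, 2 of 5 astrocyte genes in both lists, 2 of 5 microglial genes in A2a and none in D1, 1 of 4 genes of cortical excitatory neurons in A2a and 2 in D1, and none of 4 interneuron genes. The strongest of these was *Mbp* of oligodendrocytes, at percentile 88.1 of the A2a list and 80.7 of the D1 list. *Mbp* was read at its outermost annotated 5′ end, so this peak need not come from oligodendrocytes. Over all protein-coding genes, 58.2% had a promoter peak in A2a and 55.7% in D1, and 21.7% and 15.3% had a promoter island. Islands lay at all 4 cortical excitatory and all 4 interneuron promoters in both lists. They also lay at 3 of 5 astrocyte promoters in A2a and 2 in D1, and at 3 of 5 microglial promoters in A2a and 1 in D1. Of the 6 oligodendrocyte promoters, 1 had an island in each list. The part of other cells in the members' values was not tested. There were 22551 A2a and 20080 D1 H3K4me3 peaks, and 60191 A2a and 45760 D1 H3K27me3 islands. Fold enrichments and read counts are not normalized between lists.

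Across the members, H3K4me3 lay over or just inside the start of the gene in both cell types. At most members the domains were wide and ran into the gene. Exceptions were *Gnal*, narrow at its gene start in both lists but wide at its internal starts, and *Pde10a*, about even over both sides of the start. At *Adcy5* the domain was narrower in D1, where peaks over the same stretch were split by a gap just too long to be joined. H3K27me3 islands at the promoter were about as frequent as over all genes in A2a, short, and absent from the D1 list. A promoter was the stretch from 2 kb upstream to 1 kb downstream of the annotated 5′ end of the gene, and a peak or island counted with 1 bp of overlap. All 9 members had an H3K4me3 peak at the promoter in A2a, where 58.2% of protein-coding genes had one, and 8 of 9 had one in D1, where 55.7% did. A peak in both lists was found at 8 of 9 members and 55.6% of genes. Peaks separated by at most 1 kb were joined into a domain. The median domain of the members spanned 3.34 kb in A2a and 3.01 kb in D1, against 1.66 and 1.56 kb over all genes with a promoter peak. Where peaks were joined only if they touched, the members' medians were 2.19 and 1.98 kb, against 1.62 and 1.52 kb for the strongest promoter peak over all genes. Domains of at least 2 kb were found at 8 of 9 members in A2a (28.7% of all genes with a domain) and at 5 of 8 in D1 (24.3%). In A2a the spans ranked from *Adcy5* through *Arpp21*, *Rgs9*, *Ppp1r1b*, *Rasd2*, *Gng7*, *Pde1b* and *Pde10a* to *Gnal*. With 1 value per gene and list, neighbours in this order cannot be told apart.

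**Figure D1:**
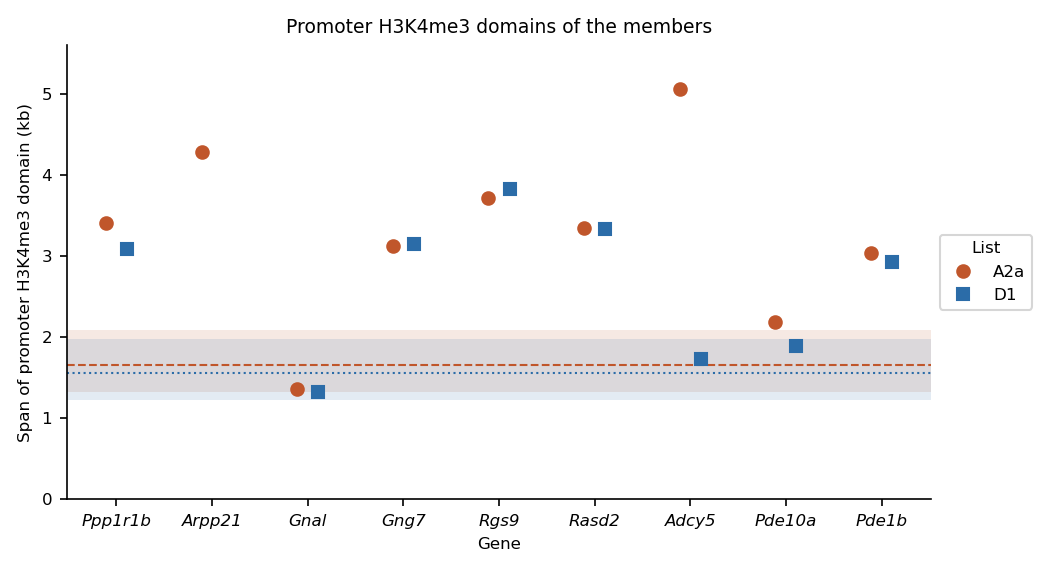
Span of the promoter H3K4me3 domain (kb, vertical axis) of each member in the A2a list (circles) and the D1 list (squares), with the median of all protein-coding genes with a promoter domain (dashed, A2a, 1.66 kb; dotted, D1, 1.56 kb) and shaded bands from the lower to the upper quartile. *Adcy5* reaches 5.07 kb in A2a and 1.73 kb in D1, where a gap just too long to be joined split its peaks. *Gnal* lies near 1.3 kb in both at its gene start, and its wider internal peak is not drawn. *Arpp21* has no D1 point because its peak began just outside the promoter window.

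*Ppp1r1b* (chr11:98348404-98357796, + strand) encodes DARPP-32, the phosphatase inhibitor on which dopamine signals converge in MSNs. Its promoter carried a single peak in each list, of 3.41 kb in A2a and 3.09 kb in D1. These spans stood at percentile 97.4 and 96.5 of all gene domains of the list. Its fold over the local background was 3.64 (A2a) and 4.72 (D1), and by −log10 q it ranked at percentile 53.6 of all A2a peaks and 72.7 of all D1 peaks. The domain began at −0.13 kb, just upstream of the start, in A2a and ended 3.29 kb inside the gene, and it covered 5 annotated transcript starts, the last of them 3.09 kb into the gene. The D1 domain ended at 2.96 kb, short of that last start. No island lay within 14.2 kb of the promoter in A2a or 15.4 kb in D1.

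*Arpp21* (chr9:112065091-112235938, − strand) encodes ARPP-21, a striatal phosphoprotein that is a substrate of protein kinase A. The A2a peak at its 5′ end began 0.987 kb inside the gene and the D1 peak 1.009 kb inside, on either side of the promoter boundary, so *Arpp21* counted as having a promoter peak in A2a and not in D1. The A2a domain was 4.29 kb long, at percentile 99.6 of gene domains, and the D1 peaks over the same stretch made a domain of 4.19 kb. The strongest peak there was enriched 2.78-fold in A2a and 2.57-fold in D1 and ranked at percentile 54.9 and 45.2. With a window at every annotated transcript start, the widest A2a domain of *Arpp21* was 4.95 kb and lay at the last group of starts, near 48 kb. The start of a long noncoding RNA on the opposite strand, *2900079G21Rik*, lies 1.66 kb inside the gene, and H3K4me3 carries no strand. *Arpp21* has 3 groups of transcript starts. The first runs from the gene start to 4.04 kb and the last from 47.5 to 50.2 kb, and both had peaks in both lists. The middle group, from 18.6 to 18.7 kb, had none in either.

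The 250 bases upstream of 2 *Arpp21* starts, 1 with and 1 without a peak, are shown. They are the start 2.22 kb into the gene, which lay inside a peak in both lists (chr9:112233723-112233972, − strand), and the start at 18.6 kb, which had no peak (chr9:112217352-112217601, − strand). The sequences here and in the following paragraphs are RefSeq's, on GRCm38.p6, written 5′ to 3′ on the strand of the gene, and capitals mark the CpG dinucleotides. The first holds 5 CpG and the second none. Their neighbours went the other way, since the start at 2.63 kb, inside a peak in both lists, has 1 CpG and the start at 18.7 kb, without a peak, has 3.
Arpp21 start at 2.22 kb: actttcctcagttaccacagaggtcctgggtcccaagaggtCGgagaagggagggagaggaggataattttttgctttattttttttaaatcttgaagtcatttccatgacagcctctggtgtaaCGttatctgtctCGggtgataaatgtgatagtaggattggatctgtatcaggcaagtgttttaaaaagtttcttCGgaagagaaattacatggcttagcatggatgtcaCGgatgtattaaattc
Arpp21 start at 18.6 kb: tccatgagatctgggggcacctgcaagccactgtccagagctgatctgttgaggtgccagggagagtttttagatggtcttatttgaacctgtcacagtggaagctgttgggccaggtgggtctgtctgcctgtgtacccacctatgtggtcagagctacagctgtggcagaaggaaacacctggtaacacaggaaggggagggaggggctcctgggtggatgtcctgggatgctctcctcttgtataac

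The G protein subunits were *Gnal* and *Gng7*. *Gnal* (chr18:67088216-67226792, + strand) encodes Gαolf, the stimulatory alpha subunit of striatal MSNs and of olfactory neurons. At the gene start it had the narrowest domain of the members, 1.36 kb in A2a and 1.32 kb in D1, at percentile 27.9 and 31.7 of gene domains. The fold enrichment there was the highest of the members, 10.7 in A2a and 8.13 in D1. A second group of 4 transcript starts lies 44.8 to 45.5 kb into the gene. The peak at these starts reached 3.93 kb in A2a and 3.61 kb in D1, wider than nearly all peaks of the lists (percentile 99.8 and 99.7 by width), and had a fold enrichment of 3.06 and 3.16. The gene start of *Gnal* thus had a narrow, high peak and the internal starts a wide, low one, in both cell types. A further wide peak, 2.81 kb in A2a and 2.64 kb in D1, lay 117 kb into *Gnal* at the start of *Chmp1b*, a gene inside *Gnal* that is no member.

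**Figure D2:**
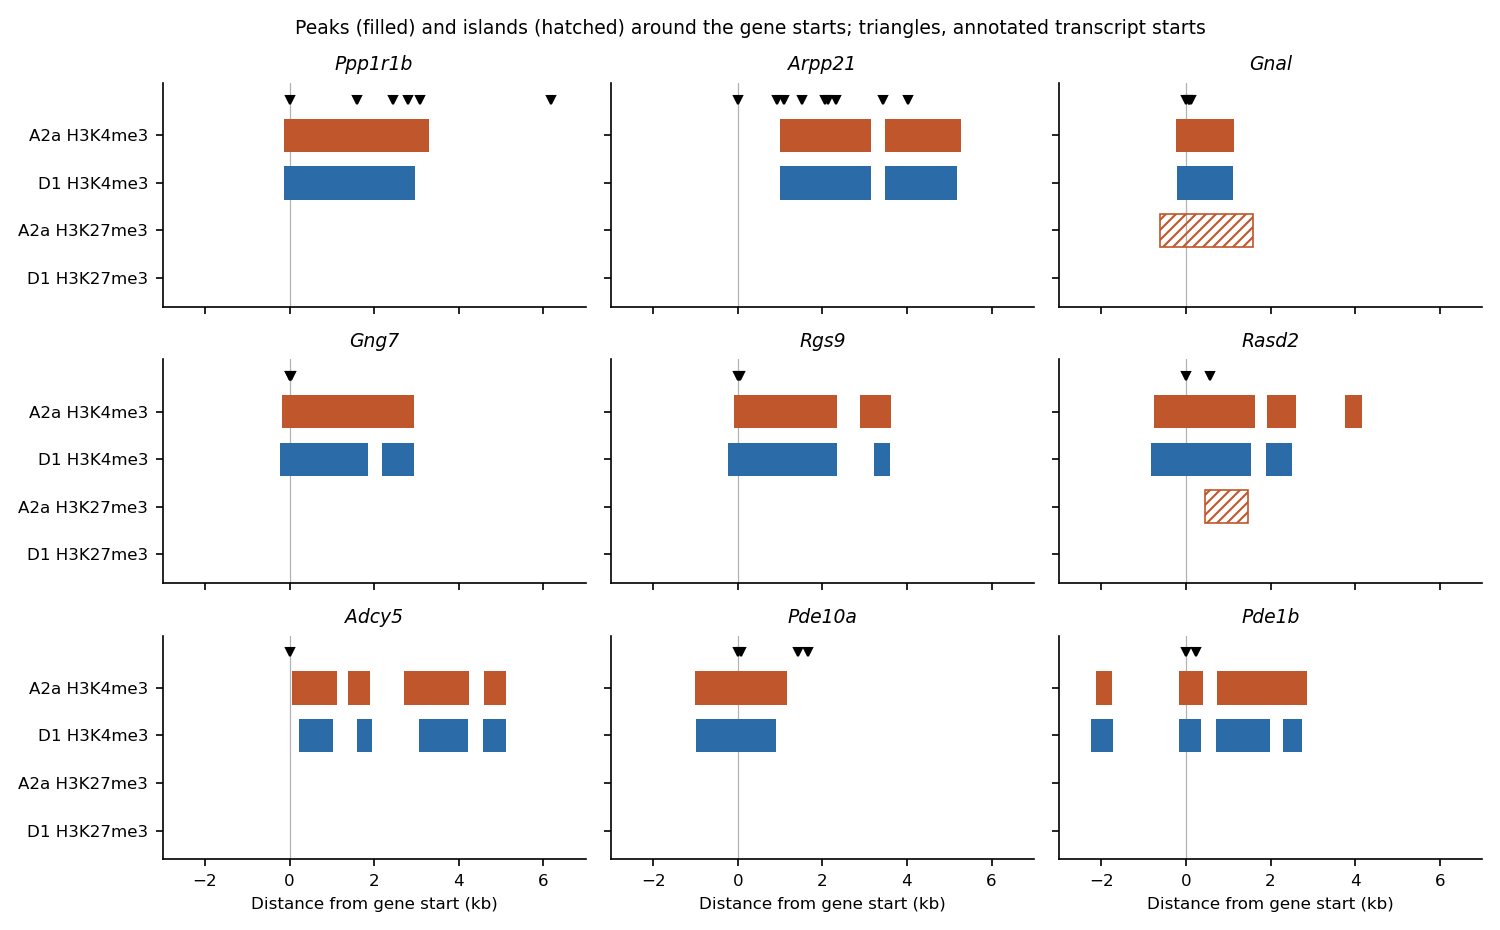
H3K4me3 peaks (filled) and H3K27me3 islands (hatched) of the A2a (orange) and D1 (blue) lists from 3 kb upstream to 7 kb downstream of the start of each member, with distance from the start in kb along the horizontal axis and triangles at annotated transcript starts. Most H3K4me3 lies to the right of the start, inside the gene, and islands appear at *Gnal* and *Rasd2* in A2a.

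*Gng7* (chr10:80948624-81014945, − strand) encodes the gamma subunit γ7, which assembles with Gαolf in striatum. Its domain was 3.13 kb in A2a and 3.16 kb in D1, and it ended at the same distance inside the gene in both lists, 2.94 kb. The fold enrichment was 5.39 and 4.27, and the percentile by −log10 q 73.1 and 51.2. At the other start groups of *Gng7*, near 13.6 and 16.8 kb, the peaks were short, between 0.464 and 1.03 kb, and ranked at percentile 24.6 or below. The start at 13.6 kb lay outside a peak in both lists, and the peak counted for it ended upstream, at 12.4 kb in A2a and 12.3 kb in D1. The sequences upstream of the gene start (chr10:81014926-81015175, − strand) and of the start at 13.6 kb (chr10:81001366-81001615, − strand) hold 15 and 2 CpG.
Gng7 gene start: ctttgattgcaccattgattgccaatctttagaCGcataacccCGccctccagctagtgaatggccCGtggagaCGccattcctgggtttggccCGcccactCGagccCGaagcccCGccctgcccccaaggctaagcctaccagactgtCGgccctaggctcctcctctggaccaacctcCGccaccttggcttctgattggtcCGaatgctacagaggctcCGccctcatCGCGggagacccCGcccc
Gng7 start at 13.6 kb: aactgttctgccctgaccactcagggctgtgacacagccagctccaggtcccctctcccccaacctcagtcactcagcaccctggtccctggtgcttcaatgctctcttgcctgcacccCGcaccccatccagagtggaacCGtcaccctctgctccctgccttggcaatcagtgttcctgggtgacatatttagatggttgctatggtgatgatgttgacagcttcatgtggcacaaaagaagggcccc

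Regulators of the G proteins were *Rgs9* and *Rasd2*. *Rgs9* (chr11:109225355-109298129, − strand) encodes a GTPase-activating protein whose long form is enriched in striatum and shortens signalling at dopamine and opioid receptors. Its domain was 3.72 kb in A2a and 3.83 kb in D1, at percentile 98.6 and 99.3 of gene domains, and the fold enrichment was 3.31 and 3.48. Both lists thus had a domain of the same kind, slightly wider in D1. The later *Rgs9* starts, at 48.0 and 51.2 kb, had no peak in either list.

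*Rasd2* (chr8:75213944-75224113, + strand) encodes Rhes, a small G protein of the striatum that dampens cAMP signalling. Its domain was 3.34 kb in both lists, and the fold enrichment was 3.55 in A2a and 3.82 in D1. Of the domain, 22.3% in A2a and 24.8% in D1 lay upstream of the gene start, more than at most members. *Rasd2* was 1 of the 2 members with an island at the promoter. Its island, in A2a, was 1.0 kb long with 88 reads (95% exact Poisson interval 70.6 to 108, counting error only) and lay from 0.457 to 1.46 kb inside the gene, within the H3K4me3 domain. The sequence upstream of the *Rasd2* start (chr8:75213694-75213943, + strand) is shown because it is CpG-rich, with 27 CpG, beside both marks.
Rasd2 gene start: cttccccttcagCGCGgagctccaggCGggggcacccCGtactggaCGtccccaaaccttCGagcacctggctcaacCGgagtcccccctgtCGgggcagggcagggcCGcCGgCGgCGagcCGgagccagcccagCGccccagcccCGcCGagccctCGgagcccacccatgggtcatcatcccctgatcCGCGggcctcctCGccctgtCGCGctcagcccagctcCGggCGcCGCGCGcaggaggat

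The enzymes that make and break down cAMP were *Adcy5*, *Pde10a* and *Pde1b*. *Adcy5* (chr16:35154877-35305738, + strand) encodes adenylyl cyclase 5, the main cyclase of the striatum. In A2a 4 peaks joined into a domain of 5.07 kb, from 0.058 to 5.12 kb inside the gene, at percentile 99.9 of gene domains and the widest of the members. In D1 the same stretch held 4 peaks, but the gap from 1.96 to 3.05 kb was too long to be joined, and the promoter domain was 1.73 kb, at percentile 62.0. The last D1 peak ended at 5.11 kb. The fold enrichment of the strongest promoter peak was 2.51 in A2a and 2.71 in D1, low in both. The sequence upstream of the RefSeq start (chr16:35154614-35154863, + strand) holds 32 CpG, the most of the member sequences.
Adcy5 gene start: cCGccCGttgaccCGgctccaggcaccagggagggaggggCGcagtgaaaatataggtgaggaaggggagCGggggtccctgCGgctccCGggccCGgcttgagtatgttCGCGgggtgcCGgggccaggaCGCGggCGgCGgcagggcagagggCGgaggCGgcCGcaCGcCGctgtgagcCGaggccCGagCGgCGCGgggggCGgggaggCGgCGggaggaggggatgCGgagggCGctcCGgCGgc

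*Pde10a* (chr17:8525372-8986648, + strand) encodes phosphodiesterase 10A, a dual-substrate enzyme abundant in MSNs, and is the longest member at 461 kb. Its promoter peak was 2.19 kb in A2a and 1.89 kb in D1, with a fold enrichment of 5.42 and 5.04. It lay about evenly over both sides of the gene start, with 53.5% downstream in A2a and 48.4% in D1. *Pde10a* has 8 groups of transcript starts. A group from 276.3 to 277.7 kb carried 3 peaks in each list. Joined with any neighbours, they formed domains of 3.24 kb in A2a and 4.98 kb in D1, and the strongest peak was enriched 2.202-fold and 2.408-fold. The other 6 internal groups had no peak in either list. The sequence upstream of a start in the marked group (chr17:8801495-8801744, + strand, 276.4 kb) holds 21 CpG, and that of a start without a peak (chr17:8849735-8849984, + strand, 324.6 kb) holds 4.
Pde10a start at 276.4 kb: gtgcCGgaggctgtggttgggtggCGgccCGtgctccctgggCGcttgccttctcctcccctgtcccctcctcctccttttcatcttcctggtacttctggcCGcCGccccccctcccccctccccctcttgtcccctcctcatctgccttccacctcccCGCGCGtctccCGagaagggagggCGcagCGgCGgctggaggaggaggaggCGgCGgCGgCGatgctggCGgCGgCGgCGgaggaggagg
Pde10a start at 324.6 kb: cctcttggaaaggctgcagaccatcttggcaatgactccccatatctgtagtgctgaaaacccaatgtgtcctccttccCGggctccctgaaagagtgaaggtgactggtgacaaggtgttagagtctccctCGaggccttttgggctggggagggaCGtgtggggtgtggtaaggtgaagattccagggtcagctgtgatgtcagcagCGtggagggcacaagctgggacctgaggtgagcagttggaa

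*Pde1b* (chr15:103503034-103530052, + strand) encodes a calcium- and calmodulin-dependent phosphodiesterase that is high in striatum. The promoter window held 3 peaks in each list, 1 of them centred near 2 kb upstream, and the domain over the start was 3.04 kb in A2a and 2.93 kb in D1. The strongest of the peaks was enriched 3.09-fold in A2a and 2.57-fold in D1 and ranked at percentile 50.2 and 38.2. A start group at 11.9 kb had a peak of 0.535 kb in A2a and none in D1.

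**Figure D3:**
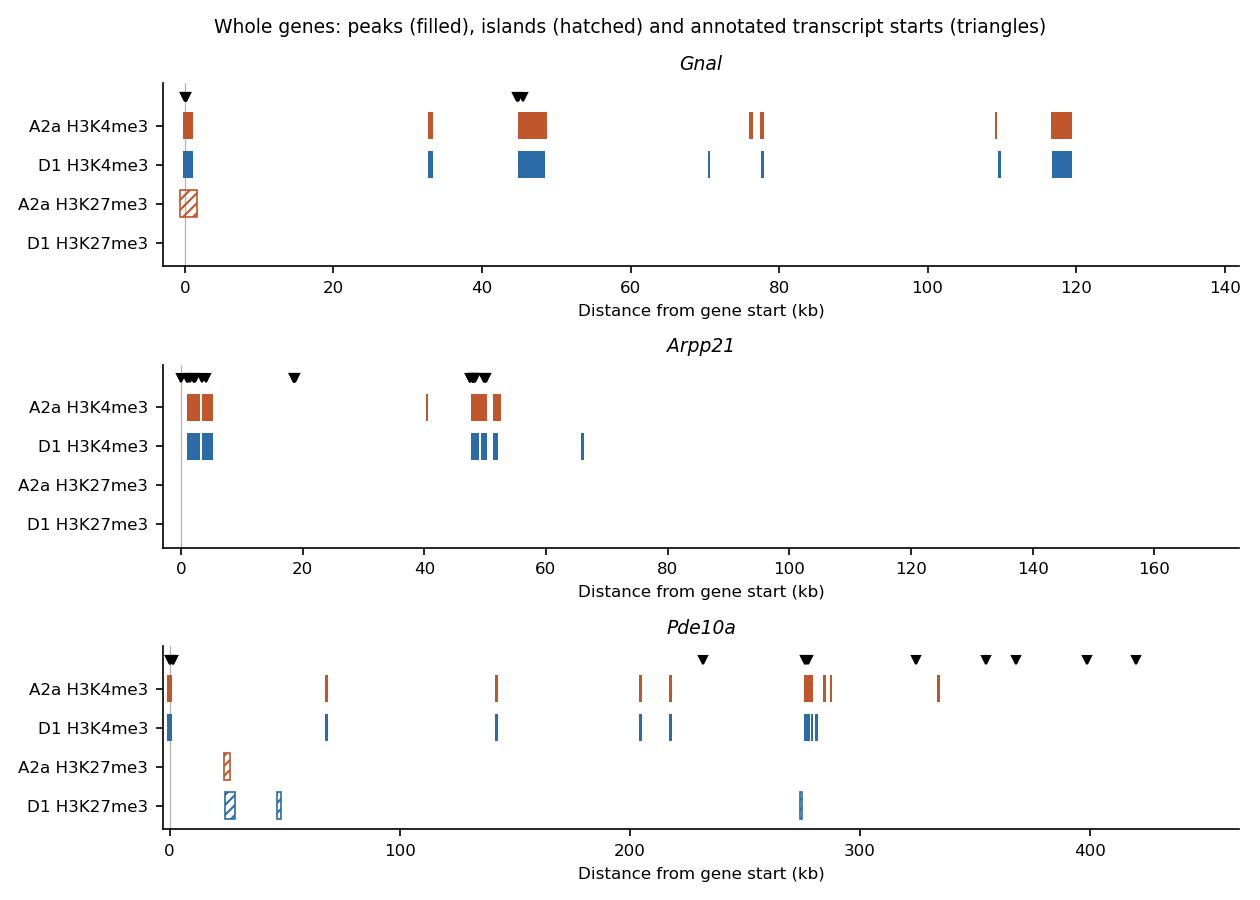
H3K4me3 peaks (filled) and H3K27me3 islands (hatched) of the A2a (orange) and D1 (blue) lists along the whole of *Gnal*, *Arpp21* and *Pde10a*, with distance from the gene start in kb along the horizontal axis and triangles at annotated transcript starts. H3K4me3 peaks lie at the internal starts near 45 kb in *Gnal*, 48 kb in *Arpp21* and 276 kb in *Pde10a* in both lists. The *Gnal* peak is wide in both. The *Arpp21* peak is 2.66 kb wide in A2a and split into shorter peaks in D1, and single *Pde10a* peaks are at most 1.03 kb wide.

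The members have 72 annotated transcript starts, which fall into 27 groups when starts within 3 kb are put together. Peaks lay at 15 groups in A2a and 14 in D1, and 12 groups had a peak in neither. When the promoter window was set at every annotated start, each of the 9 members had a peak in both lists, against 62.0% of all genes in A2a and 59.4% in D1. The median domain of the members was then 3.41 kb in A2a and 3.34 kb in D1, against 1.67 and 1.57 kb over all genes.

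The domains extended downstream more than upstream. A median of 94.2% of a member's domain lay downstream of the gene start in A2a and 93.5% in D1, where the median over all genes was 71.3% and 72.3%. The domain of the median member ended 2.94 kb inside the gene in A2a and 2.63 kb in D1, against 1.10 and 1.05 kb over all genes. With exons taken from all annotated transcripts, over 50% of the A2a domain was intron at 6 of 9 members, from 54.6% at *Adcy5* and 57.4% at *Arpp21* to 91.1% at *Gng7* and 92.2% at *Rgs9*. In D1 this held at 4 of 8 members, and the shorter *Adcy5* domain there was 100% exon. The share over the domains of all genes was not computed. At *Gnal* the A2a domain held no intron and 83.2% of it was exon, and at *Ppp1r1b* 52.3% was exon.

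The median fold enrichment of the strongest promoter peak was 3.55 over the 9 members in A2a and 4.04 over 8 in D1, against 7.65 and 7.53 over all genes with a promoter peak. By −log10 q the members' median percentile was 53.6 in A2a and 49.1 in D1, against 72.1 and 71.0. Over the whole lists, fold was highest at middle widths. Peaks under 1 kb had a median fold of 4.88 in A2a and 4.71 in D1, those of 1 to 2 kb had 8.36 and 8.002, and those of at least 3 kb had 4.09 and 3.81. Among peaks of 2 to 3 kb, the lower quartile of fold was 5.24 in A2a and 4.99 in D1. Of the members whose strongest peak was of this width, 4 of 5 lay below that quartile in A2a (*Arpp21*, *Rgs9*, *Rasd2* and *Pde1b*, with *Pde10a* above it) and 3 of 3 in D1 (*Gng7*, *Rgs9* and *Rasd2*). Among peaks of at least 3 kb this did not hold. *Gng7* in A2a (5.39) and *Ppp1r1b* in D1 (4.72) lay above the upper quartile of that class, 4.61 and 4.30, and *Ppp1r1b* in A2a, at 3.64, lay at the lower quartile.

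**Figure D4:**
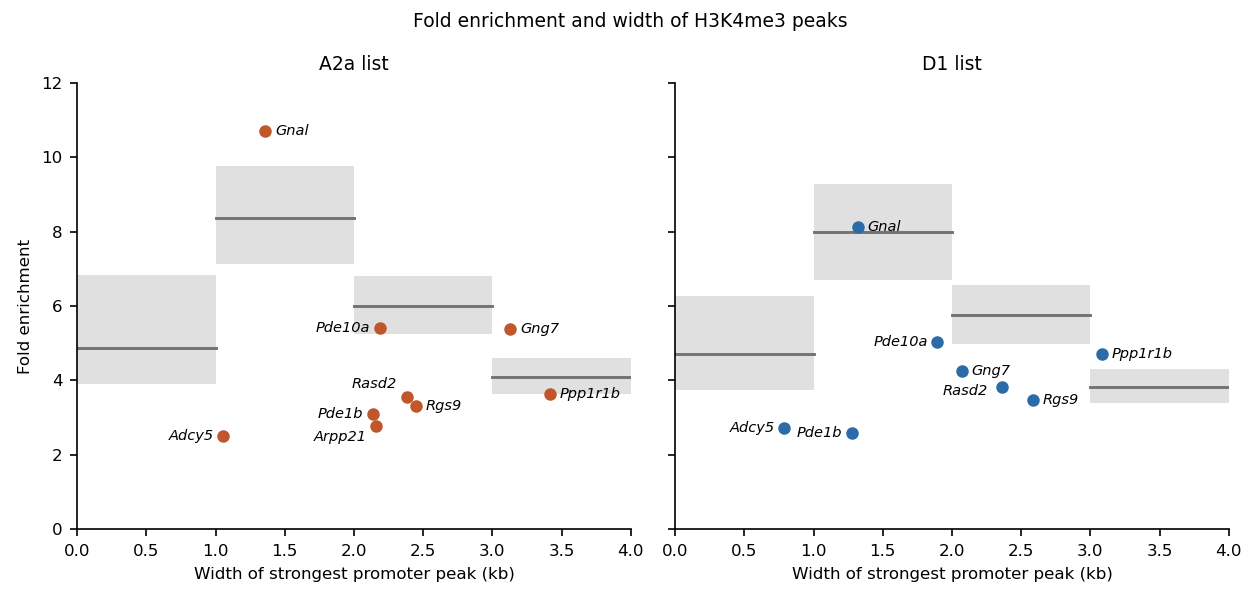
Fold enrichment over the local background (vertical axis) against width in kb (horizontal axis) of the strongest promoter H3K4me3 peak of each member in the A2a list (left, 9 members) and the D1 list (right, 8 members), with the median (line) and the range from lower to upper quartile (band) of all peaks of the list in width classes below 1, 1 to 2, 2 to 3 and at least 3 kb. The last class is open-ended and drawn to 4 kb. *Gnal* lies at or above the middle of its class, and *Adcy5*, *Pde1b*, *Rgs9* and *Rasd2* lie below the band in both panels.

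The differences between A2a and D1 went in both directions over the members. Of the 8 members with a promoter peak in both lists, 6 ranked higher in A2a, where 65.3% of the 12194 genes with a peak in both did. The fold enrichment was higher in A2a at 4 of 8 members (58.7% of genes), and the domain was wider in A2a at 6 of 8 (80.7%). The median log2 ratio of fold enrichment, A2a over D1, was 0.02 over the members and 0.05 over all genes, and that of domain span was 0.05 and 0.08. *Gnal* and *Gng7* had the largest ratios toward A2a, with log2 ratios of fold of 0.40 and 0.34, and *Ppp1r1b* the largest toward D1, at −0.38. In percentile, *Gng7* stood 21.9 points and *Gnal* 19.9 points higher in A2a, and at *Ppp1r1b* the difference, A2a minus D1, was −19.01 points. Over all genes the middle 50% of these differences ran from −2.79 to 10.6 points. Without replicates, whether these 3 genes differ beyond the spread between mice could not be tested.

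**Figure D5:**
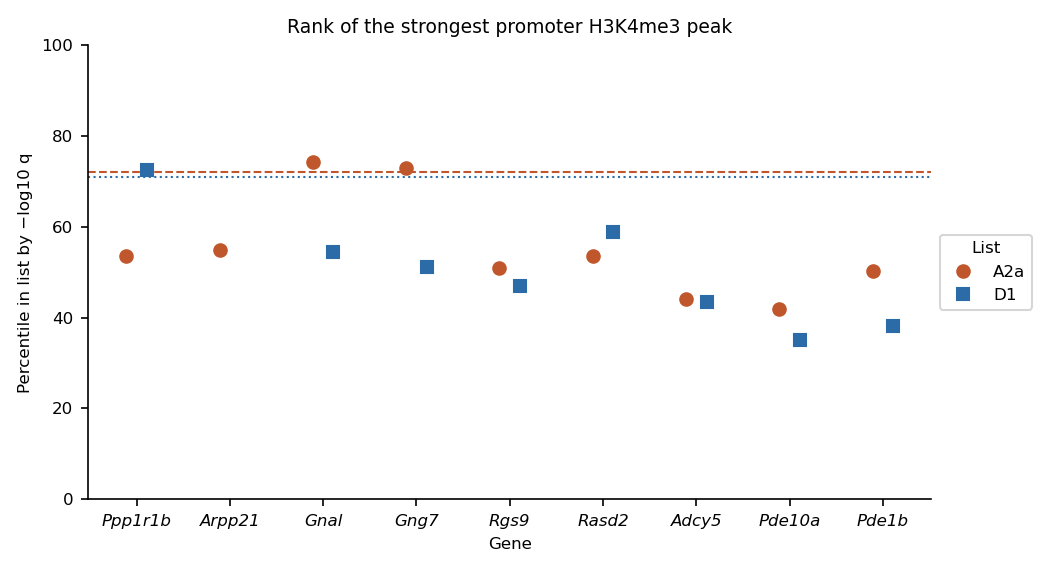
Percentile of the strongest promoter H3K4me3 peak of each member within its own list by −log10 q (vertical axis, 0 to 100) in the A2a list (circles) and the D1 list (squares), with the median of all genes with a promoter peak (dashed, A2a, 72.1; dotted, D1, 71.0). *Gnal* and *Gng7* are higher in A2a, *Ppp1r1b* is higher in D1, and most members lie below the lines in both lists.

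In A2a, 2 of 9 promoters had an H3K27me3 island (*Gnal* and *Rasd2*), where 21.7% of genes had one, so the count was near the share over all genes. The count fell to 1 with islands of at least 2000 bp, and to 0 with as many islands in each list as in the shorter one, where no difference from D1 was left. In D1 none of 9 did, where 15.3% did. An island at the promoter in A2a and not in D1, as at *Gnal* and *Rasd2*, was found at 7.38% of genes. The *Gnal* island was 2.2 kb long, from −0.615 kb to 1.58 kb relative to the gene start, with 135 reads (113 to 160). Both islands were small for the list, at percentile 19.02 (*Gnal*) and 1.73 (*Rasd2*) by reads. Per length they held 61.4 and 88.0 reads per kb, where the mean of the A2a islands was 73.4. A promoter with a peak and an island, as both these genes had in A2a, was found at 9.54% of genes, and in D1 none of 9 members and 5.57% of genes had both. The D1 list had a lower mean of 42.8 reads per kb, and a count of 0 says only that no island was called.

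Counting the whole gene as well, 3 of 9 members had an island in A2a (29.2% of genes) and 1 of 9 in D1 (22.1%), again near the share over all genes in A2a. With as many islands in each list as in the shorter one, 0 members had one in A2a and 1 in D1. The member added by counting the whole gene was *Pde10a*. In A2a it had an intronic island of 2.4 kb with 138 reads (116 to 163) at 23.8 kb. In D1 an island of 4.4 kb with 148 reads (125 to 174) lay over nearly the same intronic stretch, from 24.2 kb. Further D1 islands of 1.8 kb with 66 reads and of 1.2 kb with 55 reads lay at 46.8 and 273.8 kb, the last of them ending at 275.0 kb, shortly before the marked internal starts. In all, islands covered 0.518% of *Pde10a* and its promoter in A2a and 1.60% in D1. The distance from the promoter to the nearest island was 267 kb in A2a and 315 kb in D1 at *Gng7*, 242 and 241 kb at *Pde1b*, 117 and 114 kb at *Adcy5*, 43.5 and 544 kb at *Arpp21* and 40.3 and 49.7 kb at *Rgs9*. The median over the members was 40.3 kb in A2a and 114 kb in D1, against 28.8 and 54.2 kb over all genes.

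Peaks were also counted along the whole genes. Over genes and promoters together, the members had 47 H3K4me3 peaks in A2a and 43 in D1. Of these, 25 in A2a and 21 in D1 lay at no annotated start, and some of these were parts of the wide domains. The share over all peaks of the lists was not computed, so these counts describe the members alone. Short peaks of this kind recurred inside *Pde10a*, where those near 204 and 217 kb rose 7.83-fold and 7.67-fold over the local background in A2a and 5.14-fold and 5.79-fold in D1, above that of the *Pde10a* promoter. By −log10 q they ranked below the promoter peak. They stood at percentile 35.9 and 34.0 in A2a, where the promoter peak stood at 41.8. In D1 they stood at 25.8 and 27.5, and the promoter peak at 35.1. Of the 47 A2a member peaks, 35 overlapped a D1 peak, or 74.5%, and of the 43 D1 member peaks 38 overlapped an A2a peak, or 88.4%. For the whole lists these shares were 82.3% and 94.7%.

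RefSeq had 19 start entries for 7 of the members, and none was used for *Ppp1r1b* and *Gnal*. Of the 19, 15 had a peak in both lists within the promoter window and 3 in neither. The median count of CpG in the 250 upstream bases was 16 over the 14403 RefSeq starts with a peak in both lists and 2 over the 17569 with a peak in neither. The starts of *Adcy5*, *Rasd2*, *Pde1b* (26 CpG at the gene start) and *Pde10a* at 276.4 kb were above the first of these medians, *Gng7* (15) and *Rgs9* (14) were close to it, and the marked *Arpp21* starts, with 1 to 10, were below it. The *Gng7* start at 13.6 kb, with 2 CpG, and a *Pde1b* start at 4.09 kb, with none, also had a peak of both lists in their window, although neither start lay inside one. Both counts were no higher than the median of starts with a peak in neither list. Short motifs were searched on both strands in the same 250 bases. The full cAMP response element TGACGTCA was in none of the 19 entries, and 1.55% of 32851 RefSeq starts held it. Its shorter form TGACG, which is part of the full one, was in 3 entries of 2 members (17.8% of starts). The GC box GGGCGG was in 5 entries (32.7%), 1 each of 5 members, the CCAAT box in 8 of 4 members (33.9%) and TATAAA in 1, that of *Rgs9* (12.4%). Some of the *Arpp21* entries overlap, so the entries are not all separate promoters. Over RefSeq starts with a peak in both lists, 2.72% held TGACGTCA and 27.1% TGACG. Among those starts GGGCGG was in 59.3%, CCAAT in 34.6% and TATAAA in 5.92%. A match is a description of these letters and not of a bound site.

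Of 132 other genes of the pathway, 105 had a promoter peak in A2a and 105 in D1, or 79.5% in each. Over all genes the shares were 58.2% and 55.7%. Their median domain was 2.16 kb in A2a and 2.01 kb in D1, between that of the members and that of all genes. Domains of at least 2 kb were found at 55.2% of those with a domain in A2a and 50.5% in D1. The receptor genes had the widest median of the families, 3.12 kb in A2a and 2.82 kb in D1, near that of the members. Islands lay at 36 of the 132 promoters in A2a and 30 in D1, or 27.3% and 22.7%. Over all genes the shares were 21.7% and 15.3%. By family, a peak lay at 16 of 16 DARPP-32 partners and phosphatases and at 15 of 15 CREB factors and small G proteins in both lists, with islands at 0 and at 2 (A2a) and 1 (D1) of them. The protein kinase A genes had a peak at 8 of 9 and an island at 1 in both lists. Among receptors 8 of 9 had a peak in each list and 4 an island. For G alpha genes 11 of 17 had a peak and 4 (A2a) or 3 (D1) an island, and for G beta and gamma genes 12 of 16 had a peak and 7 or 6 an island. The phosphodiesterases had a peak at 14 of 19 and an island at 6, the RGS genes a peak at 15 of 22 and an island at 7 or 6, and the adenylyl cyclases a peak at 6 of 9 and an island at 5 or 3.

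The closest relatives named for 8 of the members had mostly narrower domains. None was named for *Pde10a*. The phosphodiesterases of the pathway list had a median domain of 2.39 kb in A2a and 2.16 kb in D1, against 2.19 and 1.89 kb at *Pde10a*. *Adcy6*, the cyclase most like *Adcy5*, had 1.47 kb in A2a and 1.17 kb in D1. *Pde1c* had 1.15 and 0.909 kb, whereas *Pde1a* had 2.83 and 2.80 kb. Both had promoter islands in both lists, of 323 and 52 reads at *Pde1c* and of 378 and 210 at *Pde1a*, unlike *Pde1b*. *Rasd1* had 1.36 and 1.31 kb and an A2a island of 193 reads. *Rgs7* had 1.76 and 1.73 kb, and *Rgs11* 3.20 and 0.998 kb. *Ppp1r1a*, the relative of DARPP-32 called inhibitor 1, had 2.16 and 1.71 kb. The ARPP-21 relatives *R3hdm1* and *R3hdm2* had 2.56 and 1.88 kb in A2a and 2.62 and 1.83 kb in D1. *Gng12* had 1.76 and 1.44 kb with islands of 3390 and 2106 reads. *Gnas*, which encodes Gαs, had no peak at its outermost annotated 5′ end, where islands held 1142 reads in A2a and 981 in D1, and it had 2 peaks in each list when every annotated start was used.

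The widest domains of the pathway list reached those of the members. *Adcy9* had 5.15 kb in A2a and 4.11 kb in D1, *Ppp3ca*, a calcineurin subunit that dephosphorylates DARPP-32, had 4.41 and 4.31 kb, and the cannabinoid receptor gene *Cnr1* had 4.36 and 4.27 kb. In A2a the promoter islands with the most reads lay at *Gng2* (16870 reads over 100.8 kb), *Rgs5* (4482) and *Adcy8* (3660), which had 6555 (over 70.2 kb), 284 and 1487 reads in D1. In D1 those with the most reads lay at *Gng2*, *Adora2a* (4153) and *Gng12* (2106). Promoter islands in A2a and not in D1 held the most reads at *Adcy2* (1622), the muscarinic receptor gene *Chrm4* (652) and *Adcy1* (467). Outside the promoter, D1 islands covered 10.6% of *Adcy2* and 4.61% of *Adcy1*, and none of *Chrm4*. Promoter islands in D1 and not in A2a held the most reads at *Adora2a*, *Gpr6* (1265) and *Rgs21* (94).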

How the data were processed

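CnR libraries of INTACT-purified A2a and D1 nuclei were read from 4 lists, each pooling 2 replicates. The authors mapped reads to mm10 (GRCm38; the submitters' processing notes name Bowtie2, version 2.1.0, and SAMtools, version 0.1.19) and filtered them by mapping quality, duplication and insert size, which can change the regions called. For H3K4me3 the authors used MACS2, and each deposited peak has a ratio to its local background, the fold enrichment, and a −log10 q-value. For H3K27me3 the authors ran SICER (window 200 bp, gap 600 bp, false discovery rate 0.01) against a control not named in the sources used here, and the deposited value is the count of reads in the island, without normalization. The lists hold no library totals, so depth is unknown, and intervals (95%, exact Poisson) cover counting error only.

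Genes were the 21938 protein-coding genes of GENCODE vM21 on chromosomes 1 to 19, X and Y. A percentile is the rank within a list by −log10 q or reads, or, for spans, among genes with a domain. The members, gene lists and rules were chosen with earlier results of these data known. The text names all members and the closest relatives of all but *Pde10a*. For each cell type it also names the first 3 pathway genes by each of several rules. These are the widest domain, the most reads in promoter islands, and the most reads in promoter islands of that list alone. *Chmp1b*, *2900079G21Rik* and *Mbp* were named after their values were seen. Of 133 listed pathway genes, 132 were found in the annotation (*Gpr52* was not). No test was made. Alternatives changed the window, the start, the overlap, the thresholds, the joining and the ranking. The counting was tested on simulated intervals. The 20 other samples were not analysed here. The software was pandas (version 2.3.3) with numpy (version 2.4.6) and scipy (version 1.17.1) under Python (version 3.11.15), and matplotlib (version 3.10.9).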

Additional observations from a re-analysis of the deposited data

How the results depend on the processing

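Of 80 values of the members' and pathway genes' counts and medians under other settings, 72 stayed within 1.5 times the value given. For the median log2 ratio this holds of the ratio and not of its logarithm. The log2 value was 0.02, and it was 0.10 with any annotated start and 0.05 with domain span in place of fold. Only the median log2 ratio has a sign that could change, and it kept its sign. With promoter islands of at least 2000 bp, 1 member had an island in A2a. With as many islands in each list as in the shorter one, 0 members had one in A2a, at the promoter or anywhere in the gene. Under that setting 1 member still had an island in the gene in D1, so the order of A2a and D1 was reversed. With a window at the start of any annotated transcript, 1 member (*Pde10a*) had a promoter island in D1. Where peaks were joined only if they touched, the members' median span was 2.19 kb in A2a and 1.98 kb in D1, against 1.62 and 1.52 kb for the strongest promoter peak over all genes. Ranked by fold enrichment in place of −log10 q, the median percentile of the members' peaks was 9.07 in A2a and 17.6 in D1. Of 106 values of single members, 6 moved by over 1.5 times, those of *Arpp21* in D1, *Gnal* and *Pde10a* with a window at any start and those of *Rasd2* and *Pde10a* with longer islands. No paired analysis was possible because each list pools its replicates, and for the same reason no replicate could be left out. The lists hold no library totals, so whether depth limits the D1 islands was not tested, and a missing island was not called rather than shown to be absent.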
